A study of Mus musculus with 2 samples.

Results

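Gap43, Stmn2, Gng8, Dpysl3 and Dcc are 5 genes that mark the immature stage of the olfactory sensory neuron, when the new neuron grows its axon to the olfactory bulb. They were taken by name from the gene annotation (GENCODE mouse release 21 on GRCm38), and all 5 were found among the 21755 protein-coding genes on chromosomes 1 to 19 and X. The data are a list of 8058 chromatin boundaries from in situ Hi-C, an assay that ligates DNA ends held near each other in fixed nuclei. A boundary is where one contact domain gives way to the next. The cells were mature olfactory sensory neurons of adult 129P2/OlaHsd mice, of mixed sex. They were isolated by FACS out of the olfactory epithelium of OMP-GFP animals, in which a fluorescent protein marks cells that use the olfactory marker protein gene. Both biological replicates belong to 1 group, with 3000000 and 1500000 cells, 1% formaldehyde and DpnII as the cutter. The authors called boundaries on the 2 replicates combined, so each gene has 1 value, without a spread between replicates and without a test. Contact depth is unknown here. The sorted cells are past the stage that the 5 genes mark, and no expression was measured, so the sort could not be checked against marker genes.

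Each boundary is a 5 kb interval with the authors' strength score, which has no stated scale and ran from 0.2 to 4.32 with a median of 0.509. The authors' classes divide the list at 0.5, with 4092 Strong boundaries and 3966 Weak ones. A domain is here the stretch from one boundary to the next, measured start to start. Distances run from the 5 kb bin of a gene's annotated start to the bin of the boundary. No boundaries lay closer together than 45 kb, so no domain could be smaller than that.

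In the growing axon these genes have distinct roles. Gap43 encodes a protein of the growth cone membrane that binds calmodulin and is a target of protein kinase C. Stmn2, also known as SCG10, encodes a stathmin that loosens microtubules in growth cones. Dpysl3 encodes CRMP4, a collapsin response mediator protein that links guidance signals to the cytoskeleton. Gng8 encodes a gamma subunit of heterotrimeric G proteins. Dcc encodes a receptor for the guidance cue netrin. Domain borders of the kind listed are known to limit which enhancers a promoter meets. Many of them hold the zinc finger protein CTCF, which stops the loop-extruding cohesin ring in a manner that depends on the direction of its binding site.

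The genes had little in common in where boundaries lay. Their nearest boundaries were 15 kb from the start for Stmn2, 30 kb for Gng8, 70 kb for Dpysl3, 130 kb for Gap43 and 285 kb for Dcc. The median over coding genes was 60 kb, with an interquartile range of 25 to 105 kb, so Stmn2 lay nearer than that range and Gap43 and Dcc beyond it. A boundary within 20 kb of the start was found for 1 of the 5, Stmn2, while 21.2% of all coding genes had one. A count of 1 in 5 is close to that share. Of all coding genes, 95.5% lay as near to a boundary as Dcc or nearer.

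**Figure D1:**
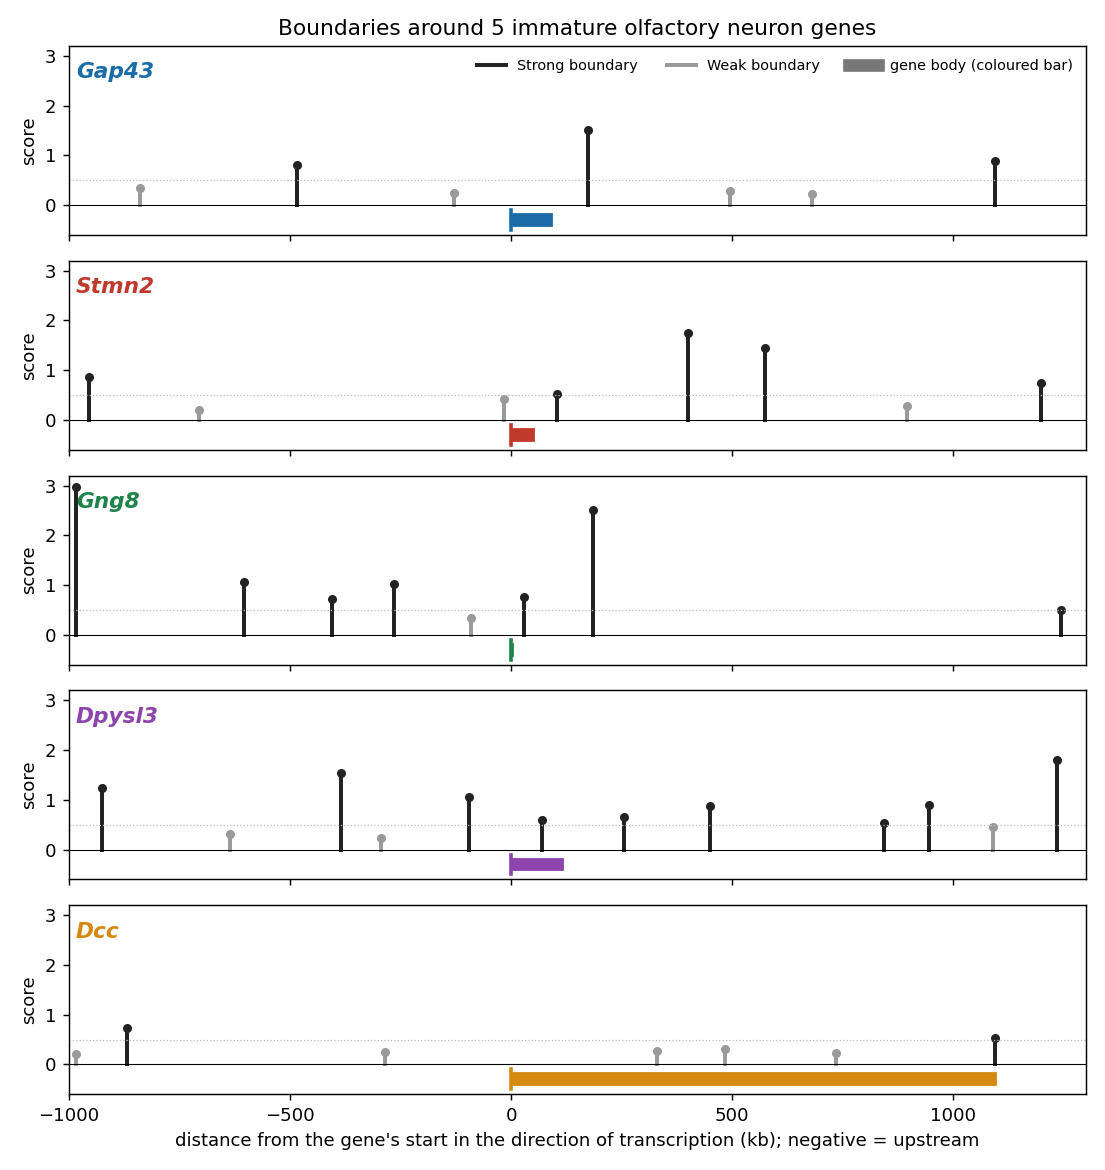
Boundaries on both sides of each start, on an axis of kb from the start along the direction of transcription, with the authors' score as the height of each stick (black Strong, grey Weak, dotted line at the class limit of 0.5) and the gene body as a coloured bar. Stmn2 and Gng8 sit between close boundaries, while Dcc spans 3 Weak boundaries and ends at a Strong one.

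Gap43 lay in a domain with no other coding start. The gene (ENSMUSG00000047261.9, minus strand) covers 92.2 kb of chromosome 16 from 42248442 to 42340651. Downstream of its start, at 175 kb, was a Strong boundary of score 1.52, at 42165001 to 42170000. It ranked 727 in the whole list and 24 among the 283 boundaries of its chromosome, the highest score among the boundaries that flank a member. It covered exon sequence, both coding and UTR, of Lsamp, a neuronal cell adhesion gene that runs toward Gap43 and whose body ends 66.8 kb from it, inside the Gap43 domain. Upstream, at 130 kb, was a Weak boundary of 0.251 (rank 6897) at 42470001 to 42475000, in intergenic sequence. The domain between them measured 305 kb, close to the median of 275 kb for coding starts, and the gene body lay wholly inside it. The other annotated starts in it were of Mir6540, a microRNA inside the gene, and of the pseudogenes Gm49737 and Gm49738. With Strong boundaries only, the interval widened to 660 kb and the start of Gap43 was still its only coding start. Zbtb20, a zinc finger gene and the next coding gene upstream, began 535 kb away beyond the Strong boundary at 485 kb.

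The strongest border beside Gap43 held 3 near matches to the CTCF core consensus, each with 1 mismatch, inside its 5 kb. Both strands were searched, and an exact match to the core was not found within 20 kb. Of all 8058 boundaries, 25 (0.310%) held at least 3 such matches in the interval, as did 0.0858% of all 5 kb bins without undetermined bases. At least 1 such match was held by 19.2% of boundaries and 11.5% of bins. This border was singled out after its count was seen, from the 13 boundaries that flank or lie inside a member. Of these, 10 held no such match in the interval, and the Strong border downstream of Gng8 and the one inside Dpysl3 held 1 each. The 3 matches are printed because they lie in that border. Each is read 5′ to 3′ along the strand of the match, as 30 bases of GRCm38 that cover the match, with capitals for the bases that match the core.
chr16:42165175-42165204, plus strand: tagtgtgaCCACaAGATGGCAGgacataac
chr16:42169919-42169948, plus strand: ggacatagaCAGCAGGTGGCGCcagagaca
chr16:42165113-42165142, minus strand: atctctgtCCACCAGGTGGCAacagtgagt
The first and second point toward the Gap43 start and the third away from it. A match of letters is not a measured binding site. At the Weak boundary upstream of Gap43 no match with up to 1 mismatch lay within 20 kb.

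Stmn2 filled much of a small domain on its own. The gene (ENSMUSG00000027500.10, plus strand) covers 52.2 kb of chromosome 3 from 8509360 to 8561606. Its start lay 15 kb from a Weak boundary of score 0.412 (rank 4770) at 8490001 to 8495000, in intergenic sequence upstream. Downstream, 105 kb from the start and 50 kb from the end of the gene, was a Strong boundary of 0.521 (rank 3941) at 8610001 to 8615000, just over the class limit. The resulting domain of 120 kb belonged to the 5.51% of domains of that size or smaller. Among the 1989 domains with a single coding start, 4.93% were no larger. No other gene of any annotated type started inside it, and the Stmn2 body made up 45.4% of the sequence between the boundary intervals.

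Outside this small domain coding genes were distant on the upstream side. The domain upstream measured 690 kb, and the next coding gene in that direction, Il7, encoding a cytokine, lay 896 kb from Stmn2. Downstream, beyond the Strong boundary, the start of Hey1, a Notch target gene, lay 158 kb from that of Stmn2. The upstream border of Stmn2 depends on a Weak call. With Strong boundaries only, the interval around its start grew from 120 to 1060 kb and took in 1 more coding start.

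An exact CTCF core match lay within 20 kb of the downstream border of Stmn2, on the side of the gene, and pointed away from the start. Exact matches lay that near 21.9% of all boundaries and 10.1% of bins without undetermined bases. A match with 1 mismatch lay nearer to the same border and pointed toward the start. Near the upstream border there were 2 matches with 1 mismatch, both inside the Stmn2 gene and so on the side of the start away from the border. The 2 downstream matches that lie between Stmn2 and its border are printed with capitals as before.
chr3:8594881-8594910, plus strand, exact: cctctgagCCACCAGGGGGCAGtgtttaat
chr3:8604542-8604571, minus strand, 1 mismatch: acctcccaCCtCTAGGGGGCAGcagcaata

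Gng8 lay in a domain of the same size as that of Stmn2 and shared it with other genes. The gene (ENSMUSG00000063594.5, plus strand) is 3.65 kb long and covers chromosome 7 from 16891786 to 16895436. Its start lay 90 kb from a Weak boundary of 0.338 (rank 5493) at 16800001 to 16805000 and 30 kb from a Strong one of 0.762 (rank 2664) at 16920001 to 16925000. The domain of 120 kb held 6 coding starts, 5 beside Gng8. Dact3, an inhibitor of Wnt signalling, started 16.5 kb upstream. Ptgir, the prostacyclin receptor gene, started 14.7 kb downstream. Further upstream were the starts of Prkd2, a protein kinase gene, at 48.9 kb and of Strn4, a striatin gene, at 75.9 kb. Seen from coding starts, the median domain held 5 of them, with an interquartile range of 3 to 10, so this number was ordinary for a coding gene. The GC content of the Gng8 domain was 51.8%, above that of 99.1% of domains or equal to it, against 37.9 to 42.0% for the domains of the other members and a median of 42.2%.

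The Strong boundary downstream of Gng8 covered the start of Calm3, one of the genes that encode calmodulin. Calm3 runs toward Gng8 from that border. Its start fell in the boundary's own bin, as for 687 of the 21755 coding genes, while that of Gng8 lay 30 kb away. An exact CTCF core match lay within 20 kb of this Strong border, outside the domain, and pointed away from the Gng8 start. It is printed with capitals for the core.
chr7:16932152-16932181, plus strand, near the Strong border: tcagttgaCCACCAGGTGGCGCtatggtaa
With 1 mismatch allowed there were 7 matches near the Strong border. Matches with up to 1 mismatch lay within 20 kb of 76.3% of boundaries and of 62.1% of bins, so their presence is common.

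The promoters of Gng8, away from the border, and of Calm3, on it, are shown side by side. Both come from RefSeq's promoter windows on GRCm38.p6, which hold 300 bases around a start, and 1 of the 5 members, Gng8, was matched there. The stretch up to the annotated start is printed, with CG pairs in capitals. That stretch is 250 bases for Gng8 and 168 for Calm3, so their windows sit differently on the annotated starts.
Gng8, chr7:16891536-16891785, plus strand: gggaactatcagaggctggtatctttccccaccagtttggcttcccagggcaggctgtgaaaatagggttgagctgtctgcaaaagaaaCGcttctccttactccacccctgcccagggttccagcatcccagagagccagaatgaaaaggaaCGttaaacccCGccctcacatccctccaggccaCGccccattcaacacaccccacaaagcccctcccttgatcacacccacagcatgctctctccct
Calm3, chr7:16924115-16924282, minus strand: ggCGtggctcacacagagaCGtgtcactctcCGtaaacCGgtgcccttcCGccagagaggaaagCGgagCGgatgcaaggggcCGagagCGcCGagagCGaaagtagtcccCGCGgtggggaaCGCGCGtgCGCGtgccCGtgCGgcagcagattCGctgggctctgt
The whole window of Gng8 held 8 CG pairs and that of Calm3 held 44. Over the 32851 windows of the table the median was 7, and 54.2% had no more than Gng8 and 98.1% no more than Calm3. CG stood in 94.6% of the windows.

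Members on the remaining chromosome had boundaries inside the gene body. Of the 5 genes 2 did, with 5 boundaries between them, and 15.9% of all coding genes had one. Both are longer than most genes. Dpysl3, of 117 kb, had 1 boundary, and 28.9% of the 4263 coding genes of 50 to 250 kb had at least 1. Gap43 and Stmn2, which fall in the same range of length, had none.

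Dpysl3 was divided between its first exon and the rest. The gene (ENSMUSG00000024501.20, minus strand) lies on chromosome 18 from 43320984 to 43438286. The boundary inside it, at 43365001 to 43370000, was Strong with a score of 0.591 (rank 3502) and fell in intron 1 of 13, with no exon in it. All 3 protein-coding transcripts, of 14 exons each, had exon 1 on one side and exons 2 to 14 on the other. For the longest transcript, 68.3 kb of the body lay on the side of the start and 44.0 kb beyond the border.

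The 3 alternative starts of Dpysl3 lay at different distances from this border. The longest transcript began 70 kb from it, the next 25 kb and the shortest 5 kb. When any start of a protein-coding transcript was allowed, Dpysl3 joined Stmn2 and 2 of the 5 members had a boundary within 20 kb, against 23.5% of coding genes. Which of the 3 starts these neurons use was not measured.

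The starts of Dpysl3 shared a domain of 165 kb with Eif3j2, a translation initiation factor gene that began 39.5 kb upstream of the longest transcript. On that side the domain ended 95 kb from the start at a Strong boundary of 1.05 (rank 1645) at 43530001 to 43535000. This one covered coding and UTR exon sequence of Jakmip2. Dpysl3 was the 1 member with Strong boundaries on both sides, as were 38.6% of the coding starts that lie between boundaries. Its domain was therefore the same with Strong boundaries only, where 3.28% of coding starts lay in an interval as small or smaller. Near matches to the CTCF core within 20 kb numbered 2 at the border inside Dpysl3 and 0 at the upstream one. The body beyond the border entered a domain of 185 kb and ended 2.30 kb from the end of Stk32a, a protein kinase gene.

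Dcc had the largest domain of the 5 members, between Weak borders. The gene (ENSMUSG00000060534.16, minus strand) covers 1097 kb of chromosome 18 from 71253634 to 72351069 and ranks 46 by length among coding genes. Its start lay in a domain of 615 kb, larger than or equal to that of 91.5% of coding starts. Upstream, at 285 kb, was a Weak boundary of 0.256 (rank 6795), and downstream, at 330 kb, another of 0.269 (rank 6527) inside the gene. Both stood in the lowest 20% of scores. Dcc was the 1 member with Weak boundaries on both sides, as were 12.7% of coding starts between boundaries.

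Along the Dcc gene 3 of the 4 boundaries fell in introns, between groups of exons, and the other on the last exon. The first, at 72020001 to 72025000, lay in intron 1 of 28. The next lay in intron 2, at 71865001 to 71870000, with a score of 0.314. The third lay in intron 7, at 71615001 to 71620000, with a score of 0.237. All 3 were Weak. The fourth, at 71255001 to 71260000, was Strong by a small margin with 0.531 (rank 3871) and covered exon 29, the last, with coding and UTR sequence. Exon 1 and 326 kb of the body thus lay in the domain of the start, exon 2 in the next, exons 3 to 7 in another and exons 8 to 28 in the last. The 5 boundaries in and upstream of Dcc had 0 to 2 near CTCF core matches within 20 kb, none inside the interval. A boundary lay within 5 kb of the gene's 3′ end, as for 6.96% of coding genes of 500 kb or more and 8.09% of all coding genes.

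Compared with other long genes, 4 boundaries in the body of Dcc was at the upper end. At least as many were found in 10.9% of the 230 coding genes of 500 kb or more, whose median was 2. Most of those genes are shorter than Dcc, and among the 59 genes of at least 1 Mb the share was 33.9% and the median 3. Per length, Dcc held 3.64 boundaries per Mb of body, against 2.24 per Mb over all genes of 500 kb or more and 3.15 per Mb over the determined sequence of the chromosomes. Inside the long genes 37.4% of boundaries were Strong, with a median score of 0.379, and in Dcc 1 of 4 was.

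**Figure D2:**
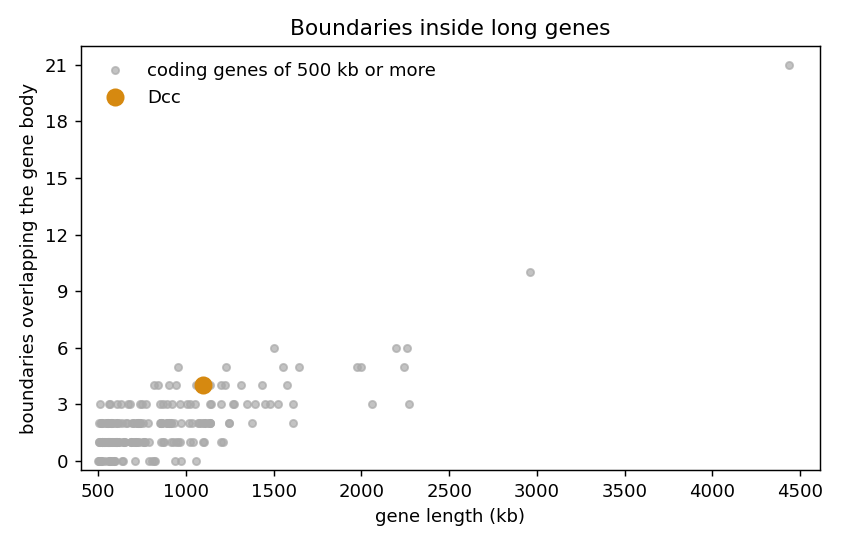
Number of boundaries that overlap the gene body against gene length in kb, for the 230 coding genes of 500 kb or more (grey) and Dcc (orange, 1097 kb and 4 boundaries). Dcc lies among the upper points at its length, and the grey point at the far right is Gm20388, with 21 boundaries.

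Strong boundaries left Dcc alone in a very large interval. From the Strong boundary on its last exon to the next Strong one, 870 kb upstream of its start (score 0.724), ran 1965 kb without another coding start. Intervals of this size or larger between Strong boundaries held 6.74% of coding starts. Being the only coding start between a pair of Strong boundaries was found for Dcc and Gap43, and for 3.81% of coding starts overall. The neighbouring coding genes lay far off, with Mbd2, a methyl-CpG binding protein gene, 628 kb beyond the end of Dcc and Mex3c, an RNA-binding protein gene, 1222 kb upstream of its start.

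**Figure D3:**
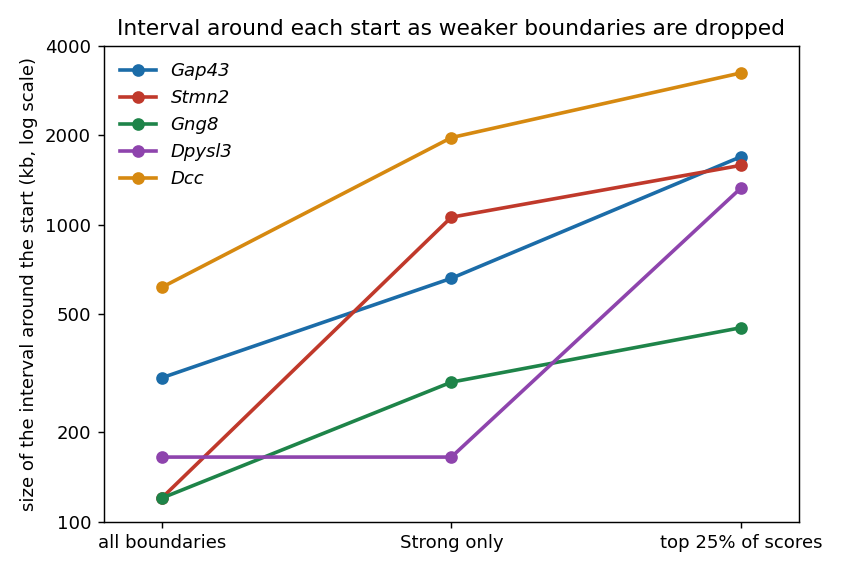
Size in kb (log axis) of the interval around each member's start when it is bounded by all boundaries, by Strong ones only or by the top 25% of scores. Dcc is the widest in each setting, at 615, 1965 and 3245 kb, while Dpysl3 stays at 165 kb with Strong boundaries only.

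Across the 5 members, domains ran from 120 kb for Stmn2 and Gng8 to 615 kb for Dcc, with a median of 165 kb. Coding starts as a whole had a median of 275 kb and an interquartile range of 195 to 390 kb. Thus 3 members lay under that range, Gap43 within it and Dcc over it. The only coding start of its domain was found for 3 of the 5, Gap43, Stmn2 and Dcc, while 9.55% of coding starts between boundaries were alone. In the lists of other genes described below, 5 of 10 immature neuron genes and 2 of 11 mature neuron genes were alone. So were 5 of the 9 progenitor genes that lie in a domain and 7 of 21 family relatives. Gap43, Stmn2 and Dcc are longer than most coding genes, and a share among genes of like length was not computed. Counted by domain and not by gene, 24.9% of domains held a single coding start. Of the 10 boundaries that flank a member start, 5 were Strong and 5 Weak, and 2 lay in the top 25% of scores. Gap43, Stmn2 and Gng8 each had a Strong flank and a Weak one, as did 48.7% of coding starts between boundaries. Both flanks were Strong for 38.6% of those starts, as for Dpysl3, and Weak for 12.7%, as for Dcc. None of the member domains held undetermined bases. DpnII sites, where the chromatin was cut, numbered 2.28 to 2.51 per kb in these domains against a median of 2.46.

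**Figure D4:**
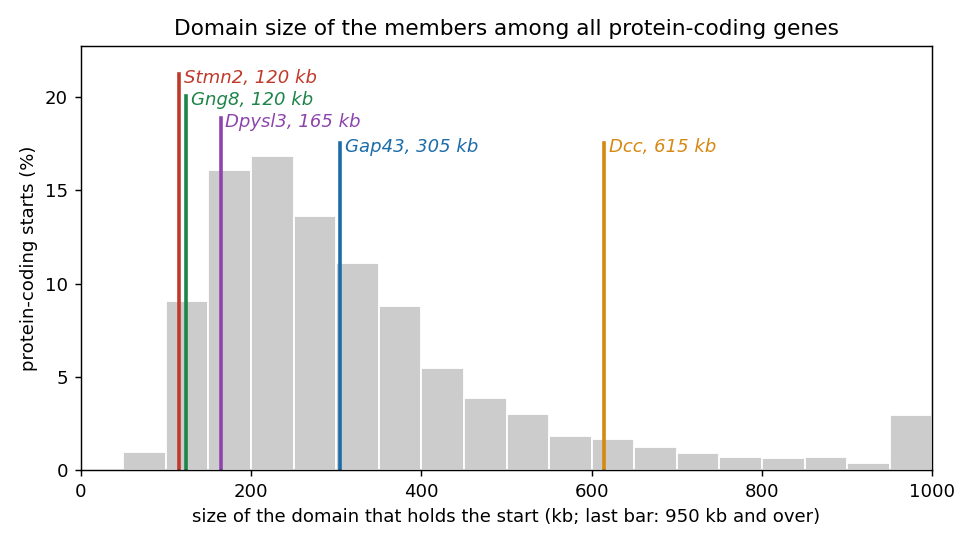
Share of protein-coding starts (%) by the size in kb of the domain that holds them (grey bars), with the 5 members as coloured lines. Stmn2 and Gng8 are drawn side by side at 120 kb, at the small end, and Dcc lies in the upper tail at 615 kb.

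Relatives of the members lay 5 to 155 kb from their nearest boundary, a smaller span than the 15 to 285 kb of the members. Among 21 family relatives 4 had a boundary within 20 kb of the start, against 21.2% of all coding genes. The other stathmins, Stmn1, Stmn3 and Stmn4, had a Strong boundary at 50 to 70 kb, with scores from 0.958 to 1.73. Each shared its domain with other coding genes, unlike Stmn2. Of the 21 relatives 7 were the only coding start of their domain, as were 9.55% of all coding starts between boundaries. Of the other collapsin response mediator genes, Dpysl4 had a Weak boundary of 0.484 at 20 kb, and Dpysl2 a Strong one of 2.30 at 80 kb. None of the 4 genes of this family beside Dpysl3, Dpysl2, Dpysl4, Dpysl5 and Crmp1, held a boundary in the body. At least 1 was held by 15.9% of all coding genes and by 28.9% of those of 50 to 250 kb. Most coding genes thus held none, and the contrast with Dpysl3 was not tested. Of the other 9 G protein gamma genes, 3 had a boundary within 20 kb. Gng13, the gamma subunit of the mature neuron, had a Strong one of 1.03 at 5 kb in a domain of 120 kb with 13 other coding starts. Gng4 and Gng7 had Weak ones at 20 kb (0.231 and 0.252). Genes for other proteins that bind calmodulin or membranes, Marcks, Marcksl1, Basp1, Nrgn and Pcp4, had their nearest boundary at 30 to 125 kb, each Strong. Over all coding genes the nearest boundary had a median score of 0.670, above the class limit of 0.5, so Strong was the more common class.

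In the netrin pathway 3 of 12 genes had a boundary within 20 kb, against 21.2% of all coding genes. Ntn1, the ligand best known for Dcc, lay 15 kb from a Strong boundary of 0.777. Among 6 other receptors, Unc5b lay 10 kb from a Strong boundary of 0.526 and Dscam 5 kb from a Weak one of 0.421. All 6 receptors were the only coding start of their domain, as Dcc was, and for the ligands this held for 3 of 6. Of all coding starts between boundaries, 9.55% were alone. The receptor genes are long, with a median of 266 kb against 17.4 kb over all coding genes. A share of lone starts among genes of like length was not computed. Unc5c, Unc5d, Neo1 and Dscam, the longest of the 6 at 162 to 580 kb, held 1 or 2 boundaries in the body. The shorter Unc5a and Unc5b held none. Of all coding genes 15.9% held at least 1, and genes of 500 kb or more had a median of 2.

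Other genes of the neuronal lineage were set beside the members. The share of all coding genes with a boundary within 20 kb, 21.2%, applies to each count below. Of 10 further genes of immature neurons 2 had a boundary within 20 kb, the transcription factor gene Emx2 (2.35, Strong, 10 kb) and the adhesion gene Ncam1 (0.239, Weak, 5 kb). Mature neuron genes had one at 2 of 11, Gnal (2.31, 15 kb) and Slc17a6 (2.68, 20 kb), both Strong. Progenitor genes had one at 3 of 10, Tead2 (1.02, in the bin of the start), Insm1 (0.380) and Pax6 (0.235). Median distances were 45 to 47.5 kb in these 3 lists and 70 kb for the members. The lists are small and the difference was not tested.

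**Figure D5:**
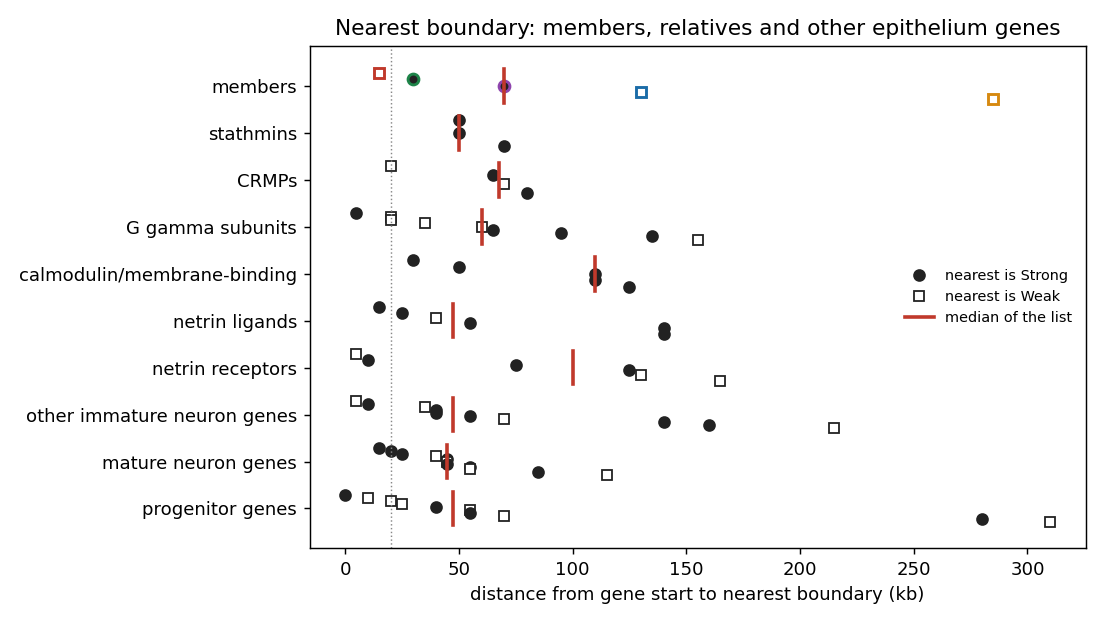
Distance in kb from the start of each gene to its nearest boundary, 1 point per gene (filled circle Strong, open square Weak), for the members (coloured outlines) and 9 lists of other genes. The red bar is the list's median and the dotted line marks 20 kb; the members run from 15 kb for Stmn2 to 285 kb for Dcc.

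The coding genes most like each member were found by gene length, domain size, distance to the nearest boundary and its score, as the mean difference in percentile over 20309 genes. Stmn2 was closest to Wnt7a, a Wnt ligand gene (mean difference 0.518 percentage points), which also lay 15 kb from a boundary in a domain of 120 kb. Next came Mapre3. Dcc was closest to Klf12 (0.718) and to Sgcz (0.922), a gene of 1139 kb in a domain of 605 kb. Gap43 was closest to Smchd1 and Rab30, with differences of up to 1.97. For Gng8 they were Cox14 and H2-K1 (up to 2.40), and for Dpysl3 Tmem63c (2.29) and Cfap43 (2.30).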

How the data were processed

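In situ Hi-C libraries of mature olfactory sensory neurons, 2 replicates, gave 1 deposited list of boundaries. Per the series design text, the authors merged both replicates into 1 map before calling boundaries. The build, GRCm38, is from the submitters' processing notes. Caller, mapper and depth were not given in the sources used here. Each deposited score is the authors' strength of a boundary and served only to rank or divide boundaries within the list.

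Gene records came from GENCODE mouse release 21 and sequence from GRCm38.p6. Starts and boundaries were placed in 5 kb bins. Domains with over 50 kb of undetermined bases (41 of 8038) were left out of medians and percentiles of size. The CTCF core consensus of 14 bases was searched on both strands. Percentiles and shares over all coding genes stand in place of tests. In a check on simulated data, a pair of boundaries was planted around each of 200 coding starts. The function that places starts between boundaries recovered the nearest distance and the domain size at all 200. Overlap with gene bodies and the motif search were not part of this check. Python 3.11.15, pandas 2.3.3 and numpy 2.4.6 were used.

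Members and gene lists were chosen with earlier results of these data known. Named genes were the members, coding genes of their domains (up to 8), the coding gene nearest each flanking or internal boundary, the 2 genes most like each member, and listed genes with a boundary within 20 kb. Others in the text, such as the next coding gene on each side, genes under a border and list members beyond 20 kb, were named after their values were seen. A gene that the rule names is, with its motif matches, not reported here. Alternatives were Strong boundaries only, the top 25% of scores, other distances, other starts, all gene types and other motif rules.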

Additional observations from a re-analysis of the deposited data

How the results depend on the processing

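The count of members with a boundary within 20 kb of the start, 1 in the report, was 0 with Strong boundaries only, 0 with the top 25% of scores, 0 within 10 kb, 2 within 50 kb and 2 when any start of a protein-coding transcript was allowed. It was again 1 with the distance taken to the edge of the interval. Of all 21755 coding genes, 4609 had a boundary within 20 kb of the start and 2986 a Strong one. With any protein-coding transcript start the share was 23.5%. Shares over all coding genes for the other settings are not given here. The 5 boundaries inside gene bodies became 2 with Strong boundaries only and 0 with the top 25% of scores. The median domain of 165 kb became 660 kb with Strong boundaries only and 1585 kb with the top 25% of scores, both fixed by the removal of borders, and was 165 kb again for the furthest downstream transcript starts. The 3 exact CTCF matches within 20 kb of the flanking boundaries became 23 with 1 mismatch allowed and 0 inside the intervals. Of 37 alternative values for single genes and for the motif, 16 stayed within 1.5 times of the reported value. No replicate could be left out and no paired analysis was possible because the boundaries come from the combined map. How contact depth bears on the calls could not be examined.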

Other observations

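Some genes of the lists set beside the members lay near each other on a chromosome, with boundaries between them (chosen after their values were seen). The start of Marcks, a membrane-bound substrate of protein kinase C, and that of Hdac2, a histone deacetylase gene from the list of immature neuron genes, lay 164 kb apart on chromosome 10. A single boundary stood between them, Strong with a score of 1.11, at 37010001 to 37015000. It was the nearest boundary of both genes, 125 kb from Marcks and 40 kb from Hdac2, and each gene was the only coding start of its domain, of 705 and 505 kb.

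The stathmin gene Stmn4 and the collapsin response mediator gene Dpysl2, relatives of Stmn2 and Dpysl3, lay 524 kb apart on chromosome 14. Between their starts were 2 boundaries, both Strong, and the stronger one, of 2.30, was the nearest to Dpysl2.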
